A study of Mus musculus with 4 samples.

Results

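The levels of 7 genes of the Notch pathway were followed across proliferating and differentiating C2C12 cells with and without knockdown of the long noncoding RNA MUNC: the receptors Notch1, Notch2 and Notch3, the ligand Jag1, and the target transcription factors Hes1, Hey1 and Heyl. They were chosen by gene name, and all 7 had 1 transcript cluster of their own on the array, out of 14860 genes with a named cluster. C2C12 is a mouse myoblast line whose cells divide in serum-rich medium and fuse into myotubes when serum is lowered. Cells received control siRNA, or siRNA directed at MUNC (siMUNC). They were harvested either dividing in medium with 10% fetal bovine serum or on day 3 of differentiation in 2% horse serum, started at 80% confluence. Both siRNAs were used in both states, which gave 4 groups of 1 line. Each group was measured on 1 Affymetrix array, so no value has a replicate, no difference has a test, and having 4 arrays in all is what limits precision. MUNC is transcribed upstream of Myod1, and 0 named clusters were paired with it, so the depth of the knockdown was not analysed here.

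Notch receptors are single-pass membrane proteins that are cut when they bind a Delta or Jagged ligand on a neighbouring cell. The freed intracellular domain enters the nucleus, joins the DNA-binding protein Rbpj and switches on genes of the Hes and Hey families, which encode transcriptional repressors. In skeletal muscle the pathway is known for keeping satellite cells undifferentiated and for restraining the myogenic programme in myoblasts.

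The regions just upstream of the 3 receptor genes are shown because the receptors took different courses over the 4 arrays, and the windows can be searched for the motifs of the pathway's own factors. RefSeq promoters (build GRCm38.p6, 250 bases before to 50 after the start of the gene) were found for 4 of the 7 genes, Notch1, Notch2, Notch3 and Jag1, and the other 3 are Hes1, Hey1 and Heyl. The Notch1 window is chr2:26503773-26504072 on the minus strand, the Notch2 window chr3:98013288-98013587 on the plus strand, and the Notch3 window chr17:32166841-32167140 on the minus strand. Each is written 5′ to 3′ along its gene, with the letters of the N-box (CACNAG on either strand), a motif known to be bound by Hes1, in capitals.
Notch1: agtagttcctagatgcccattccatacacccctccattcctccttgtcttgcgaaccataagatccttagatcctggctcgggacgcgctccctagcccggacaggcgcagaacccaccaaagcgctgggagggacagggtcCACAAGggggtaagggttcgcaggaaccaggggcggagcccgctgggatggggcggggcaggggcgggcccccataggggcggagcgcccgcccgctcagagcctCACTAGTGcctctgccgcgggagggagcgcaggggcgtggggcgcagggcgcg
Notch2: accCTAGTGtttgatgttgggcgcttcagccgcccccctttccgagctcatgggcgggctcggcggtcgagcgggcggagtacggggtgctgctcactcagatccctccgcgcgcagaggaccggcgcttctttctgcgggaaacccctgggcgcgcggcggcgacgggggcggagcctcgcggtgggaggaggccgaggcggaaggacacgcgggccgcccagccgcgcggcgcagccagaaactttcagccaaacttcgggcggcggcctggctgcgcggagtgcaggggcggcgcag
Notch3: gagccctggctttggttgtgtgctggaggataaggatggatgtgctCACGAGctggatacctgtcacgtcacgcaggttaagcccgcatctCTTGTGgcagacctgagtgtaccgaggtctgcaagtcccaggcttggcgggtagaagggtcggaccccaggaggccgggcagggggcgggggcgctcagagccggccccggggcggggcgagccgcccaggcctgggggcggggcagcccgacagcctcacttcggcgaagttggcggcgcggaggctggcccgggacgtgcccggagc
The N-box letters occurred 3 times in the Notch1 window, 1 time in Notch2 and 2 times in Notch3, and 2 of the Notch1 matches overlap each other on opposite strands. They occurred 0 times in the Jag1 window, and 42.5% of all 32851 promoter windows of this length held at least 1. The core of the Rbpj motif was searched for as GTGGGAA, held by 6.38% of all windows, and as the shorter TGGGAA, which lies within it, held by 25.6%. Neither was found in the 4 windows on either strand. The E-box (CANNTG), the motif of myogenic basic helix-loop-helix factors, was found 1 time in Jag1 and 0 times in the receptor windows, against 72.3% of all windows with at least 1. A match is a run of letters, not a measured binding site.

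Levels are log2 values as deposited, so a difference of 1 is 2-fold. The array medians lay between 7.96 and 8.03 and the correlations between arrays between 0.964 and 0.988. A gene is called expressed in a comparison when its highest value among the arrays compared reached 8.50, the median of gene means. With no replicates, the only measure of error within these files comes from 51 expressed genes read by 2 transcript clusters: the log2 difference from 1 cluster had a standard deviation of 0.21 for differentiation in control cells, 0.14 for differentiation in siMUNC cells, 0.14 for the knockdown in proliferating cells and 0.17 for the knockdown in differentiating cells. This spread covers probes on the same arrays and not the variation between cultures, which is unknown. It was computed from the values as deposited and not under other scalings. Over expressed genes the median size of the difference was 0.31, 0.20, 0.14 and 0.19 in the same order, so a value beyond the spread is common.

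**Figure D1:**
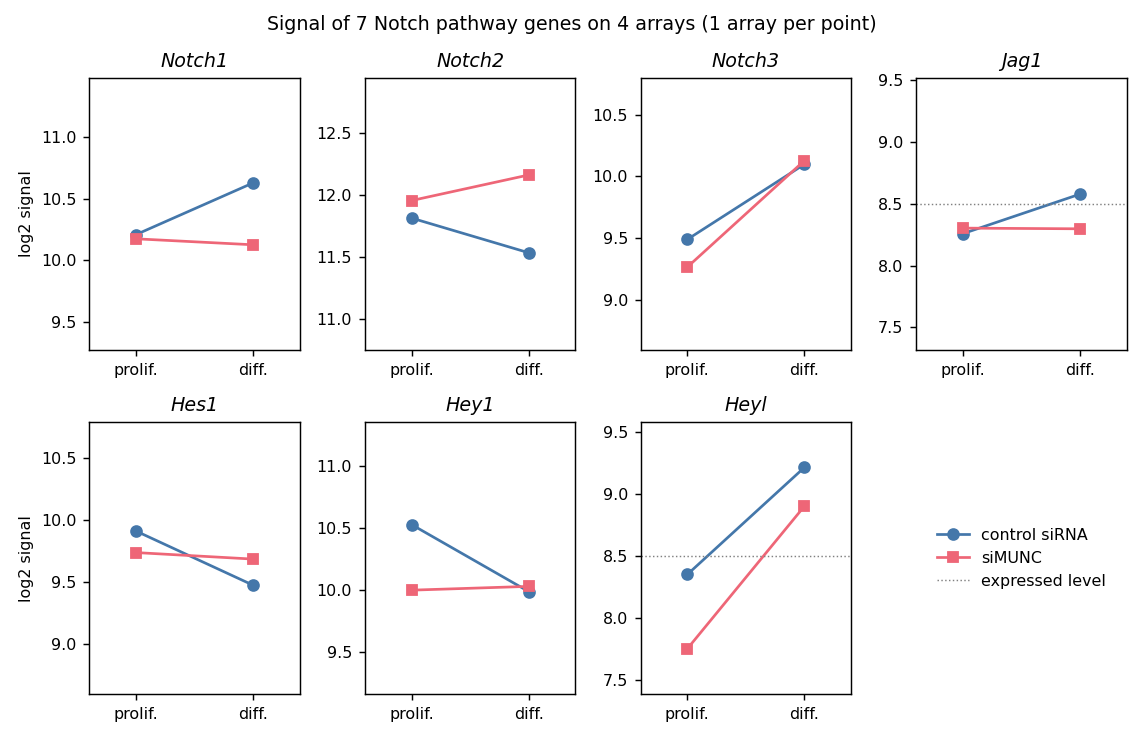
Log2 signal of each of the 7 genes in proliferating (prolif.) and differentiating (diff.) cells with control siRNA (circles) or siMUNC (squares), 1 array per point. All panels span the same number of log2 units, and the dotted line marks the expressed level of 8.50 in panels whose range includes it. Notch3 and Heyl are higher in differentiating cells with either siRNA, Notch1, Jag1, Hes1 and Hey1 differ between the states mainly in control cells, and Notch2 differs in opposite directions with the 2 siRNAs.

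Of the receptors, Notch3 was higher in differentiating cells with either siRNA. Its log2 level in proliferating cells was 9.49 with control siRNA and 9.27 with siMUNC, and in differentiating cells 10.10 and 10.13. Both differentiating arrays stood above both proliferating arrays, by 1.52-fold in control cells (log2 difference 0.61) and 1.81-fold in siMUNC cells (0.86). The 2 differentiating values differed by 0.030, less than the spread between clusters. The proliferating values differed by 0.22 (siMUNC lower), which is beyond that spread. Bulk RNA cannot tell fewer cells that express a gene from less of its RNA per cell, here or below.

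Notch1 was highest in control differentiating cells. In proliferating cells it read 10.21 with control siRNA and 10.17 with siMUNC, and in differentiating cells 10.63 and 10.13. The last of these and both proliferating values lay within 0.082 of each other, and the control differentiating value stood 0.42 (1.34-fold) above the next. The knockdown difference in differentiating cells was therefore -0.50, or 1.41-fold lower with siMUNC, and in proliferating cells it was -0.034.

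Notch2 showed the opposite arrangement. Its log2 level before differentiation was 11.81 with control siRNA and 11.95 with siMUNC, and afterwards 11.53 and 12.16. Control differentiating cells had the lowest value and siMUNC differentiating cells the highest. Differentiating cells read 1.21-fold lower than proliferating cells with control siRNA (-0.28) and 1.15-fold higher with siMUNC (0.21). The knockdown difference was 0.14 in proliferating cells, about the size of the spread between clusters, and 0.63 (1.55-fold higher with siMUNC) in differentiating cells.

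The ligand Jag1 was close to the expressed level on every array. It read 8.26 and 8.30 in control and siMUNC proliferating cells, 8.58 in control differentiating cells and 8.30 in siMUNC differentiating cells. As with Notch1, the control differentiating array stood above the other 3, here by 0.27 (1.21-fold), and the other 3 lay within 0.044 of each other. That array was also the only one on which Jag1 reached the expressed level.

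The target genes Hes1, Hey1 and Heyl encode related repressors, and their patterns over the arrays differed. Hes1 had log2 levels of 9.91 (control) and 9.74 (siMUNC) while proliferating, and of 9.47 (control) and 9.69 (siMUNC) on differentiation. It was lower in differentiating than in proliferating control cells by 1.35-fold (-0.44), whereas the siMUNC arrays differed by -0.053, within the spread between clusters. The siMUNC value lay below control in proliferating cells (-0.17) and above it in differentiating cells (0.21).

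Hey1 read 10.53 in control proliferating cells and 10.00, 9.99 and 10.03 in siMUNC proliferating, control differentiating and siMUNC differentiating cells. The control proliferating array thus stood 0.50 (1.41-fold) above the other 3, which lay within 0.042 of each other. Differentiation in control cells (-0.54, 1.45-fold lower) and the knockdown in proliferating cells (-0.53, 1.44-fold lower) share that 1 array, so these differences are not independent of each other.

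Heyl had the widest range of the 7 genes, 1.46 on the log2 scale (2.76-fold). Its 2 proliferating values, 8.35 (control) and 7.75 (siMUNC), lay below the expressed level, and its differentiating values were 9.22 (control) and 8.90 (siMUNC). It was 1.82-fold higher in differentiating cells with control siRNA (0.86) and 2.22-fold higher with siMUNC (1.15). With siMUNC it was lower in both states, by 1.52-fold in proliferating cells (-0.60) and 1.24-fold in differentiating cells (-0.31). The siMUNC difference rests on a dim proliferating value, and adding an offset of 50 to the linear signal took it from 1.15 to 0.99, below 2-fold.

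Set against all genes, differentiation in control cells had 0 of 7 expressed Notch genes past 2-fold in either direction, where 11.8% of 7856 expressed genes were. Past 1.5-fold, 2 were higher (Notch3 and Heyl, background 10.5%) and 0 lower (background 15.3%), and the offset of 50 took Notch3 below 1.5-fold (0.574). Notch3 was exceeded or matched by 10.0% of expressed genes and Heyl by 6.30%. At the other end, 17.1% of expressed genes were as low as Hey1 or lower. The 7 differences ran from -0.54 to 0.86 with a median of 0.32, against a median of -0.094 over expressed genes and 0.052 over all genes. The directions did not follow the roles of the genes: Notch1, Notch3 and Jag1 were above 0 with Heyl, and Notch2 was below 0 with Hes1 and Hey1. Over all genes 55.9% were above 0, and over expressed genes 41.0%.

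In siMUNC cells, differentiation put 1 of 6 expressed Notch genes past 2-fold higher (Heyl, background 2.92%) and 0 past 2-fold lower (background 1.34%). Heyl was matched or exceeded by 2.06% of expressed genes and Notch3 by 3.73%. Past 1.5-fold higher there were again 2 genes, Heyl and Notch3 (background 6.44%). Notch1, Jag1, Hes1 and Hey1 had differences between -0.053 and 0.031, all within the spread between clusters, and Notch2 had 0.21. The median of the 7 was 0.031, against -0.047 over expressed genes. The control and siMUNC differences share no array, and in both Heyl was the highest of the 7 and Notch3 the next.

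**Figure D2:**
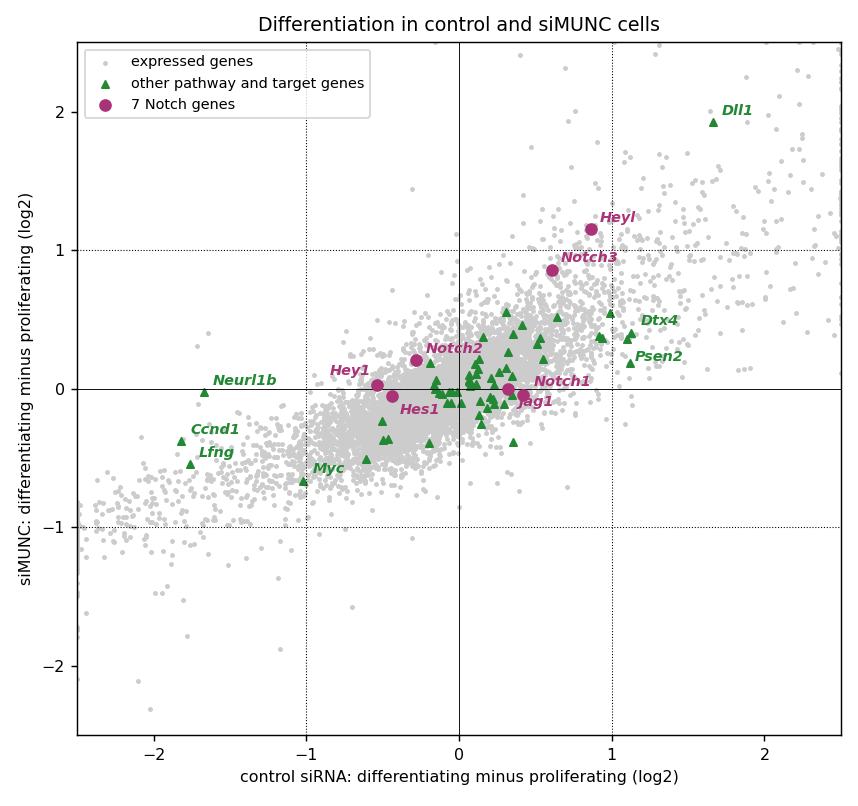
Log2 difference between differentiating and proliferating cells with control siRNA (x axis) and with siMUNC (y axis) for genes expressed in either comparison (grey, values beyond the axes drawn at the edge), other genes of the pathway and its reported targets (triangles) and the 7 Notch genes (circles); dotted lines mark 2-fold. Heyl (0.86 and 1.15) and Notch3 (0.61 and 0.86) lie in the upper right, Hey1 (-0.54) and Hes1 (-0.44) are below 0 with control siRNA and near 0 with siMUNC.

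The knockdown in proliferating cells had 0 of 5 expressed Notch genes past 2-fold, where 0.397% of 7564 expressed genes were, and 0 past 1.5-fold, where 3.42% were. The lowest of the 5 was Hey1 (-0.53), a value that 3.66% of expressed genes reached or went below. Heyl was lower still (-0.60) but dim on both arrays, and 2.28% of dim genes were past 1.5-fold lower. Notch3 (-0.22) and Hes1 (-0.17) were lower by more than the spread between clusters, and Notch1 (-0.034) and Jag1 (0.044) lay within it. Of expressed genes 29.7% had a difference as large as that of Notch3 in either direction, and 40.3% as large as that of Hes1. Hes1 fell within the spread of the deposited values under centring (-0.11) and quantile normalization (-0.12). Across all 7 genes, 5 were below 0 and 2 above (56.8% of all genes and 44.0% of expressed genes were above). Their median was -0.17, against -0.030 over expressed genes. All 3 target genes were among the 5.

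In differentiating cells the receptors differed in direction under knockdown: Notch2 was higher with siMUNC (0.63), Notch1 lower (-0.50) and Notch3 nearly level (0.030). None of the 7 expressed genes was past 2-fold (background 4.28%), and Notch2 was the 1 past 1.5-fold higher (background 6.59%), a call lost under cyclic loess (0.583). Of expressed genes 5.67% were as high as Notch2 or higher, and 7.77% as low as Notch1 or lower. Jag1 (-0.28) and Heyl (-0.31) were lower, Hes1 was higher (0.21), and Hey1 (0.042) lay within the spread between clusters. In all, 4 were above 0 and 3 below (52.0% of all genes and 55.1% of expressed genes were above). The median of the 7 was 0.030, against 0.032 over expressed genes.

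**Figure D3:**
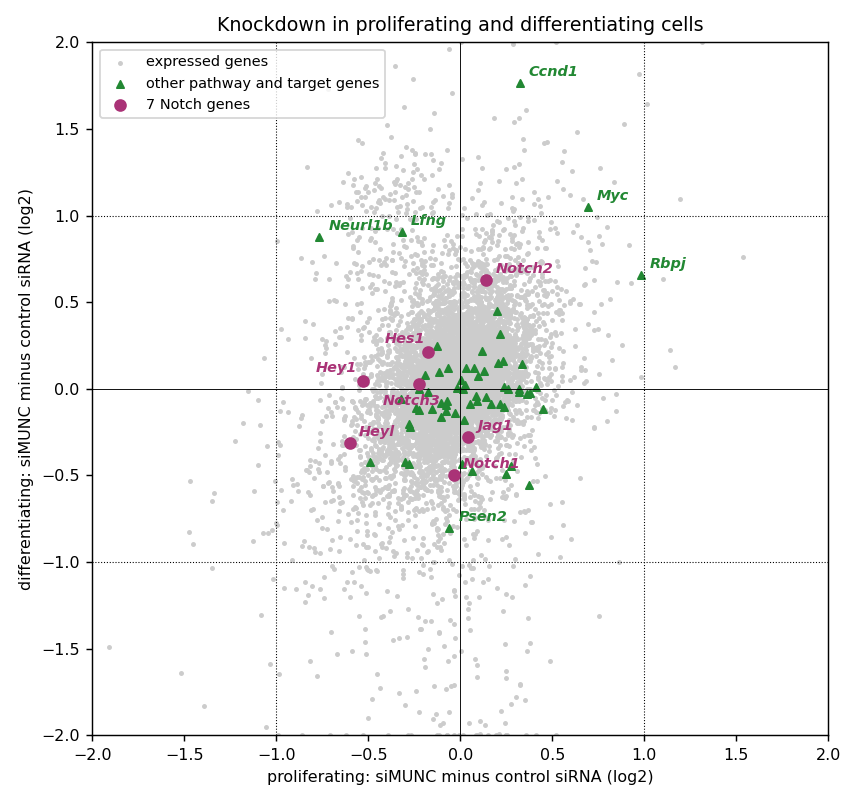
Log2 difference between siMUNC and control siRNA in proliferating (x axis) and differentiating cells (y axis) for genes expressed in either comparison (grey, values beyond the axes drawn at the edge), other genes of the pathway and its reported targets (triangles) and the 7 Notch genes (circles); dotted lines mark 2-fold. Notch2 (0.14 and 0.63) and Notch1 (-0.034 and -0.50) separate along the y axis, and Hey1 (-0.53 and 0.042) and Heyl (-0.60 and -0.31) lie to the left.

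The difference between the 2 differentiation effects (siMUNC minus control) uses all 4 arrays. It was positive for Hey1 (0.57), Notch2 (0.49), Hes1 (0.38), Heyl (0.29) and Notch3 (0.25) and negative for Notch1 (-0.47) and Jag1 (-0.32). That put 5 of 7 above 0, as were 59.8% of expressed genes and 46.2% of all genes. The 7 values as deposited exceeded the spread between clusters of this measure (0.18), as did the median size over expressed genes (0.19). Notch3 lay within that spread of the deposited values under centring (0.16) and quantile normalization (0.176), and Heyl under quantile normalization (0.17). None of the 7 was past 2-fold (background 4.74%) or past 1.5-fold (background 12.6%). Hey1 was matched or exceeded by 8.72% of expressed genes, and 6.17% were as low as Notch1 or lower. Notch1 and Jag1 were higher on differentiation with control siRNA, and Notch2, Hes1 and Hey1 lower. All of these had differentiation effects closer to 0, or of opposite sign, with siMUNC, while Notch3 and Heyl had effects farther from 0. Over expressed genes the median size of the differentiation effect was also smaller with siMUNC (0.20) than with control siRNA (0.31).

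The rest of the pathway was read from lists of its known components. Of 70 listed genes 52 had a cluster of their own. For differentiation in control cells, 35 of them were expressed, with 3 past 2-fold higher and 2 lower (backgrounds 5.21% and 6.58%). In siMUNC cells 1 of 35 was past 2-fold higher and 0 lower (backgrounds 2.92% and 1.34%). Past 2-fold under knockdown were 0 of 34 before and 0 of 35 after the change of medium (backgrounds 0.397% and 4.28%). The medians of the 52 were 0.13, 0.050, 0.021 and -0.021 in these comparisons. Those of all 14860 genes were 0.052, -0.019, 0.037 and 0.010, and those of expressed genes were -0.094, -0.047, -0.030 and 0.032.

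Among the other ligands, Dll1, a Delta ligand of myogenic cells, was higher on differentiation with either siRNA, as Notch3 and Heyl were. It read 7.86 and 7.54 in control and siMUNC proliferating cells and 9.52 and 9.46 in differentiating cells (log2 differences 1.66 and 1.92). Its differentiating values differed by only -0.058 between the siRNAs. Jag2, the relative of Jag1, was lower in differentiating control cells (-0.50), and Dll3 and Dll4 were dim on all 4 arrays. The ligand-like proteins had 0 of 5 measured genes expressed in differentiation of control cells, and the dim Mfap2 was at 1.12 there.

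The genes that modify the receptors or ligands held the 2 genes past 2-fold lower on differentiation in control cells, Lfng and Neurl1b. Lfng, a Fringe glycosyltransferase that modifies Notch receptors, read 10.88 and 10.57 in control and siMUNC proliferating cells and 9.12 and 10.02 in differentiating cells. The log2 difference on differentiation was -1.77 with control siRNA and -0.54 with siMUNC. Neurl1b, an E3 ligase of the Neuralized family that acts on ligands, read 10.26 and 9.50 in proliferating and 8.59 and 9.47 in differentiating cells, with differences of -1.67 and -0.027. Their differences of effects, 1.22 and 1.64, were past 2-fold. Of 36 expressed genes among the 52, these were the 2 past 2-fold higher, and 0 were past 2-fold lower (backgrounds 2.96% and 1.78%). As with Hey1, Neurl1b was lower with siMUNC in proliferating cells (-0.77), while in differentiating cells it was higher with siMUNC (0.88). The other glycosylation genes ran from Eogt (-0.61) to Mfng (0.35) on differentiation in control cells, and Neurl1a, the relative of Neurl1b, was at 0.99.

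For receptor cleavage, the proteases Furin (-0.052) and Adam10 (-0.19) differed little on differentiation in control cells. Psen2, a catalytic subunit of gamma-secretase, read 7.90 and 7.84 in control and siMUNC proliferating cells and 9.00 and 8.19 in differentiating cells. Like Notch1 and Jag1 it was highest in control differentiating cells (differentiation 1.10 with control siRNA and 0.36 with siMUNC), and the offset of 50 took the 1.10 to 0.96. Only 3 of 7 gamma-secretase genes had a cluster of their own. Dtx4, a Deltex ligase that acts on the receptor, was likewise highest in control differentiating cells, with 9.66 and 9.94 in proliferating and 10.79 and 10.34 in differentiating cells (1.13 and 0.40).

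Of the nuclear complex, Rbpj was higher with siMUNC in both states but dim on all 4 arrays, with 6.97 and 7.95 in control and siMUNC proliferating cells and 7.10 and 7.76 in differentiating cells. The coactivator Maml3 was at 0.41 and 0.46 on differentiation with control siRNA and siMUNC, while siMUNC against control siRNA put it at -0.27 before and -0.22 after the change of medium. The coactivators Maml1, Snw1 and Ep300 had differences of at most 0.22 in size in the 4 comparisons between groups. All 8 corepressor genes measured were below 0 for the knockdown in differentiating cells, from -0.018 (Tle1) to -0.42 (Tle5, a short relative of the Groucho corepressors). Over all genes 52.0% were above 0, and over expressed genes 55.1%. None of the 8 was past 2-fold, and 6 of them lay within the spread between clusters. Numb, an inhibitor of Notch receptors, had 0.11 as its farthest value in these comparisons. The other Hes and Hey genes were dim except Hes6, which counteracts Hes1 and favours differentiation: it was higher in differentiating cells by 0.92 with control siRNA and 0.38 with siMUNC.

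**Figure D4:**
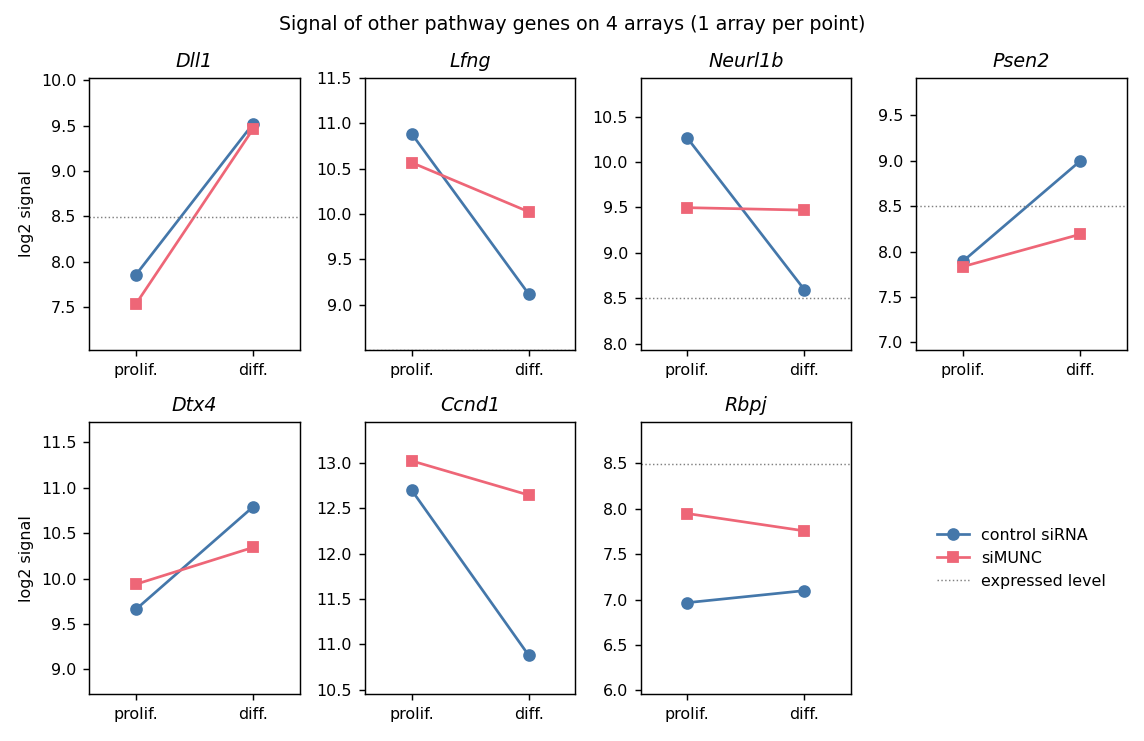
Log2 signal of 7 other pathway and target genes in proliferating (prolif.) and differentiating (diff.) cells with control siRNA (circles) or siMUNC (squares), 1 array per point. All panels span the same number of log2 units, and the dotted line marks the expressed level of 8.50 in panels whose range includes it. Dll1 is higher in differentiating cells with either siRNA, Lfng, Neurl1b and Ccnd1 are lowest in control differentiating cells, and Rbpj lies below the expressed level on all 4 arrays.

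Genes reported elsewhere as Notch targets had 0 of 9 expressed members past 2-fold higher and 2 lower on differentiation in control cells (backgrounds 5.21% and 6.58%), Ccnd1 (cyclin D1, -1.82) and Myc (-1.02). Quantile normalization, centring, cyclic loess and the offset each put Myc within 2-fold. Both were past 2-fold higher with siMUNC in differentiating cells (1.77 and 1.05, 2 of 9 against a background of 1.99%), where the offset took Myc to 0.98. Pax7, the transcription factor of satellite cells, was higher on differentiation with either siRNA (0.64 and 0.52) and lower with siMUNC in both states (-0.30 and -0.42), the same signs as Heyl. These genes have many other regulators, and the myoblast markers moved in the same comparisons: Mki67, a proliferation marker, read 10.50 and 9.86 in control and siMUNC proliferating cells and 7.67 and 8.86 in differentiating cells, and the differentiation factor Myog 8.43, 7.45, 12.21 and 10.56 in that order. The part of the cell cycle and of the extent of differentiation in the Notch values was not tested.

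Heyl was the 1 gene of the 7 whose 4 values spanned at least 1, and its nearest genes were sought among 7967 others by the root mean square difference of mean-centred values over 4 arrays. They were Tmem86a (0.039), Gas1 (0.048) and P2rx6 (0.054). Gas1 read 10.83 and 10.34 in control and siMUNC proliferating cells, then 11.67 and 11.42 in differentiating cells, the same order as Heyl. The likeness rests on 4 points and is a description.

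Markers of other cells that use Notch were read beside these values. None of 10 endothelial markers reached the expressed level on any array, and their mean log2 level lay between 6.05 and 6.31, with Cdh5 and Pecam1 at 6.47 or below. Of 10 smooth muscle and pericyte markers, a type known for Notch3 and Heyl, 3 to 4 reached it, and their mean was 8.52 and 8.77 in control and siMUNC proliferating and 8.59 and 8.61 in differentiating cells. On differentiation 5 of the 10 were above 0 and 5 below with control siRNA, and 4 above and 6 below with siMUNC. Acta2, the brightest of the list, was higher with control siRNA (0.66) and nearly level with siMUNC (0.039). Pdgfrb was higher with either siRNA (0.60 and 0.53), Tagln (-0.31 and -1.08) and Cspg4 (-0.46 and -0.065) were lower, and Myh11 was dim throughout. The satellite and reserve cell list, of which Hes1 and Heyl are 2 of 11 genes, had means of 8.78 and 8.64 in proliferating and 9.11 and 9.12 in differentiating cells. Its differences on differentiation had medians of 0.22 with control siRNA and 0.37 with siMUNC. Spry1 was highest in both (2.32 and 2.92), and the lowest were Cd34 with control siRNA (-0.59) and Sdc4 with siMUNC (-0.51). Under knockdown 5 of the 11 were above 0 and 6 below in either state. Of all genes 56.8% were above in proliferating and 52.0% in differentiating cells. The list ran from Cxcr4 (-0.75) to Chrdl2 (0.23), both dim, in proliferating cells. In differentiating cells it ran from Cxcr4 (-0.56) to Cd34 (1.08). Of 7 measured fibroblast markers 3 were expressed on each proliferating array and 6 and 4 on the control and siMUNC differentiating arrays, and of 7 macrophage markers at most 2 on any array. The defining myoblast markers Myod1, Des and Cdh15 read at least 10.70 on every array. The part of the pericyte, satellite and fibroblast markers in the Notch values was not tested.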

How the data were processed

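Per the labels' protocols, total RNA from 4 C2C12 cultures was labelled with biotin and hybridised to Affymetrix whole-transcript arrays. Per the submitters' processing notes, the authors used Affymetrix Expression Console to make the deposited log2 values. The program's version, its background correction, how arrays were normalized and which genome build was used are not stated in the labels. The log2 scale was inferred from the range of the values (2.56 to 14.3). Of 23332 clusters, 14996 had 1 gene in the platform's annotation, 1019 several and 7317 none. Of the single-gene clusters 14941 matched RefSeq (GRCm38.p6). A gene with several clusters is represented by the one with the highest mean.

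Groups were taken from sample titles. Differences between arrays were counted past 2-fold among expressed genes, with no test, and the calculation was tested on simulated data. Members and lists were chosen with earlier results of these data known. Named genes are the 7 members, listed pathway genes past 2-fold or at the ends of a list, mainly for differentiation in control cells, and the 3 genes nearest to a member spanning at least 1. Rbpj, Pax7, Hes6 and the markers named were picked from their lists after their values were seen. Alternatives were quantile normalization, median centring, cyclic loess (limma 3.58.1), a linear offset of 50, a floor at the 25th percentile, other filters, the mean over clusters and a 1.5-fold threshold.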

Additional observations from a re-analysis of the deposited data

Results flagged for a closer look

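In 8 of 14 pairs of effects (7 genes, differentiation with each siRNA and knockdown in each state) the effects had opposite signs. With 1 array per group these opposite signs were not tested. The share of such pairs over all genes was not counted, so the count cannot be read as particular to these genes. Both values exceeded the spread between clusters of a gene in 2 of the 8. On differentiation Notch2 was at -0.28 with control siRNA and 0.21 with siMUNC. Under knockdown Hes1 was at -0.17 while proliferating and 0.21 on differentiation. Under another scaling 1 value of each pair fell within the spread of the deposited values. Notch2 in control cells was at -0.1997 under cyclic loess, and Hes1 in proliferating cells at -0.11 under centring and -0.12 under quantile normalization.

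In the other 6 pairs at least 1 value lay within that spread. On differentiation with control siRNA and with siMUNC, Notch1 was at 0.42 and -0.048, Jag1 at 0.32 and -0.0055, and Hey1 at -0.54 and 0.031. Under knockdown, proliferating first, Notch3 was at -0.22 and 0.030, Jag1 at 0.044 and -0.28, and Hey1 at -0.53 and 0.042.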

How the results depend on the processing

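No paired analysis was possible because each group holds 1 array. Of 35 differences of the 7 genes (5 comparisons), 32 kept their sign under quantile normalization, median centring and cyclic loess. The other 3 (Jag1 and Hey1 on differentiation in siMUNC cells, Notch1 for the knockdown in proliferating cells) were at most 0.034 from 0. The remaining alternatives say little about sign. The floor and the mean over clusters left every value of the 7 genes unchanged. The offset of 50 cannot change the sign of a difference between a pair of arrays. No value moved by more than 0.16 under any of these alternatives. The count of the 7 genes past 2-fold for differentiation in siMUNC cells went from 1 to 0 with the offset of 50 (Heyl at 0.99) and to 0 when a mean at or above the 60th percentile was required, which leaves Heyl out. With the 1.5-fold threshold the counts were 2 and 2 for differentiation with control siRNA and with siMUNC, and 1 for the knockdown in differentiating cells, against 0, 1 and 0. The other counts of these genes stayed at 0. Over all genes, either direction, the 60th percentile filter took differentiation in control and siMUNC cells from 926 to 523 and from 327 to 186, the knockdown in proliferating and differentiating cells from 30 to 19 and from 327 to 179, and the difference of effects from 378 to 174. The 1.5-fold threshold gave 2022, 940, 259, 958 and 1007 in the same order. For the knockdown in proliferating cells, no filter gave 87 and the offset 19. Alternatives for the other pathway genes were chosen after seeing the data. Signal over background limits Heyl, Jag1, Psen2 and Rbpj, which lie near or below the expressed level, and Dll1, whose proliferating values lie below it.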

Other observations

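The fourth receptor, Notch4, is read by a cluster annotated to Notch4, Btnl2 and Btnl6 together, so its own level was not analysed here. That cluster read 7.66 and 7.90 in control and siMUNC proliferating cells and 7.86 and 7.95 in differentiating cells, below the expressed level on all 4 arrays.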
